A study of Mus musculus with 4 samples.

Results

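The transcription factors that pattern the trunk segments of the mouse embryo were read in muscle dissected from limb and back of embryos at E13.5. The members are Pax1, Pax9, Foxc1, Foxc2, Zic1, Tbx18, Uncx, Tcf15, Foxd1 and En1. Their probe sets were taken by gene symbol and not by signal, but the members themselves were chosen with earlier results of these data known. The platform annotation names 16 of 45101 probe sets with these 10 symbols, out of 18193 named genes. A probe set is a group of short probes on the Affymetrix array that together give 1 signal for a transcript. Total RNA of 4 samples was hybridised to 1 array each. These are limb muscle of wild-type (WT) BALB/c embryos, limb muscle of BALB/c embryos null for Myod1 (MyoD-/-), back muscle of WT BALB/c embryos and back muscle of BALB/c embryos null for Myf5 (Myf5-/-). All 4 share the BALB/c background and the age of E13.5. Myod1 and Myf5 encode transcription factors that start the muscle programme. The labels do not say how the null alleles were made or how many embryos gave each RNA. Each group has 1 array, so differences stand between single arrays, without replicate error or p-value.

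Somites are the segments of paraxial mesoderm beside the neural tube. Signals from the notochord and floor plate, Sonic hedgehog above all, turn the ventral part of each somite into sclerotome, which forms the vertebrae and ribs, while the dorsal part becomes the dermomyotome, the source of trunk and limb muscle and of the dermis of the back. Pax1 and Pax9 are paired-box factors of the sclerotome, Foxc1 and Foxc2 are forkhead factors of paraxial mesoderm, Tbx18 and Uncx keep the anterior and the posterior parts of a segment apart, and Tcf15 (paraxis) is a basic helix-loop-helix factor needed for the somite to become an epithelium. Zic1, Foxd1 and En1 are patterning factors of the dorsal somite and of several other embryonic tissues.

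Each array was scaled to a 2% trimmed mean of 500, and a signal under 100 was taken as not measured above the floor. A gene was called when it differed at least 2-fold and the brighter array reached 200. Where 1 of the compared arrays lay under 100, the ratio is a bound and is written as "at least". Probe sets that read 1 gene in common differed in log2 ratio by a median SD of 0.35 in the limb pair, 0.32 in the back pair and 0.35 between WT limb and WT back, which covers probes, not embryos. The share of probe sets at 100 or more ranged from 56.0% in MyoD-null limb to 63.7% in back labelled Myf5-null. The 3 prime over 5 prime signal ratio of Gapdh was 12.2 in WT limb, 8.06 with MyoD null, 6.46 in WT back and 9.46 in back labelled Myf5-null and thus differed within both pairs. Myod1 was 688 in MyoD-null limb against 1438 in WT limb, but Myf5 was 583 in back labelled Myf5-null against 508 in WT back, and directions in that pair rest on the label. The sources used here do not place the probes relative to the deletions, and probes outside them would not check the genotype. The limb label was borne out by position genes: Hoxd13, a Hox gene of the distal limb, was 12104 and 15406 in the limb arrays against 157 and 167 in the back arrays. Of the 9 measured genes of limb position, 6 were called higher in both limb arrays than in both back arrays, where 0.462% of all measured genes were. Pitx1, a hindlimb factor, did not follow, at 757 and 243 in the limb and 1025 and 1276 in the back. The muscle label was borne out as well, with all 17 listed genes of skeletal muscle at 100 or more in every array, Acta1 (skeletal actin) from 6172 to 27605. Genes of other tissue were read in the pieces as well, with the cartilage collagen Col2a1 between 1119 and 5495.

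**Figure D1:**
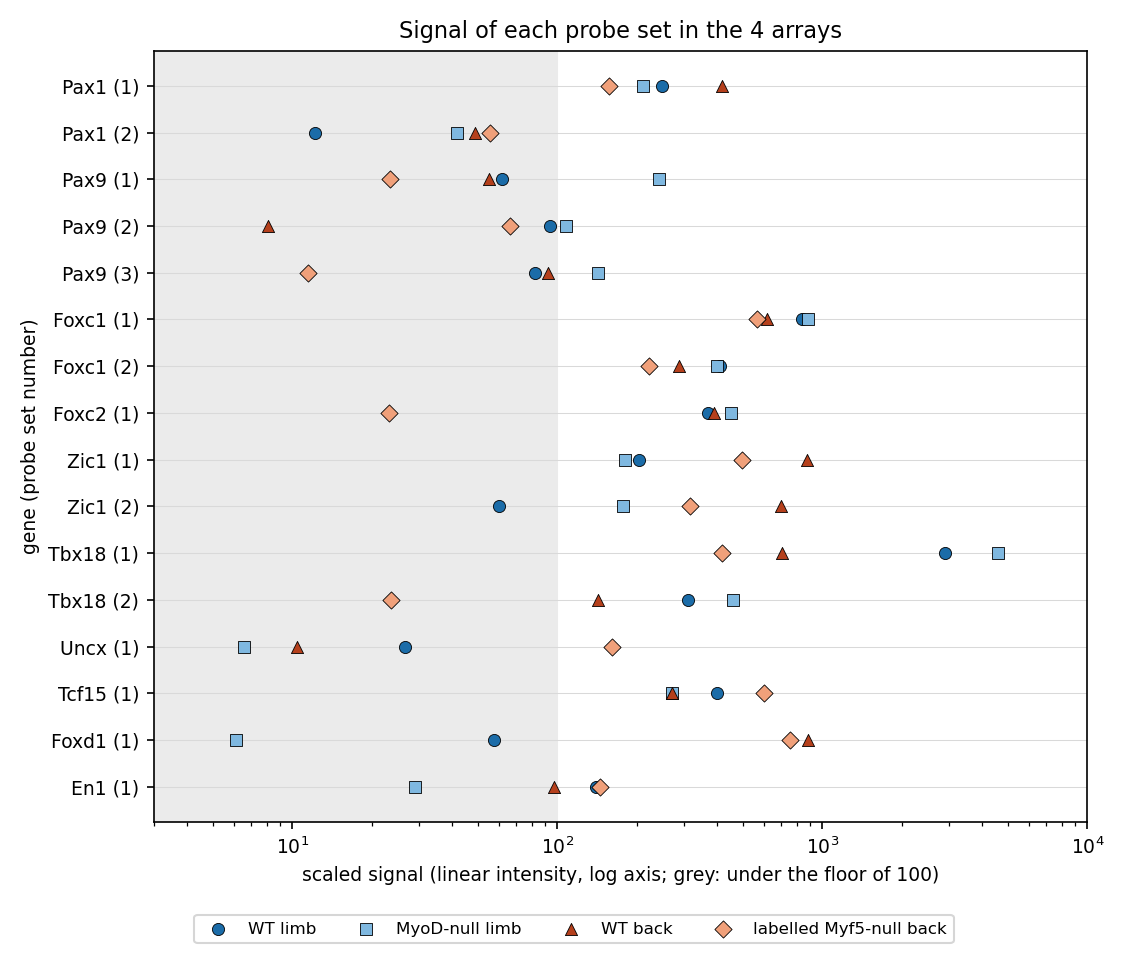
Scaled signal of the 16 probe sets of the 10 genes (log axis), 1 point per array, with the grey area under the floor of 100. Foxd1 separates the arrays by body region, with both limb arrays in the grey area and both back arrays above 700, and Foxc2 is in the grey area in back labelled Myf5-null alone.

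The members were read with unequal certainty. Of the 16 probe sets, 6 reached 100 in all 4 arrays and 1 stayed under 100 in all of them. Taking the brightest probe set of each gene, 5 members were at 100 or more in every array (Pax1, Foxc1, Zic1, Tbx18 and Tcf15) and 8 reached 200 in at least 1 array. The exceptions were Uncx and En1, which stayed under 200 throughout and were called in no comparison. None of the 16 probe sets carries a suffix that marks probes shared with other transcripts.

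Pax1, which with Pax9 drives sclerotome cells towards cartilage, gave 249 in WT limb, 210 with MyoD null, 418 in WT back and 157 in back labelled Myf5-null. WT back was thus the highest array and the array labelled Myf5-null the lowest, with both limb arrays between them. The log2 ratio in the back pair was -1.41, a 2.66-fold lower signal, against -0.24 in the limb pair. In whole pieces, fewer cells of a type and less RNA per cell cannot be told apart, here and in the values below. The second probe set of Pax1 stayed under 100 in all 4 arrays and gives no reading. Pax9 is the close relative of Pax1 and is expressed in the sclerotome and in limb mesenchyme. It was read by 3 probe sets, and in each of them MyoD-null limb was the only array at 100 or more, at 241, 108 and 143. Against WT limb these are at least 2.41-fold, at least 1.08-fold and at least 1.43-fold higher. Pax9 was therefore under 100 in both back arrays, and the back pair cannot be compared for it.

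Foxc1 and Foxc2 are forkhead factors that act together in somite formation and later in skeletal and vascular development. Foxc1 gave 836 in WT limb, 881 with MyoD null, 616 in WT back and 567 in back labelled Myf5-null. Its second probe set gave 409, 399, 288 and 222 in the same order. Both probe sets put the limb arrays above the back arrays without overlap, with a gap of only 1.36-fold and 1.39-fold. The widest difference between a mutant and its wild type was -0.37 in log2, in the second probe set and the back pair. Foxc2 gave 369 in WT limb, 450 with MyoD null and 390 in WT back, and lay under 100 in back labelled Myf5-null. The first 3 arrays lay within 1.22-fold of each other, while the last was at least 3.90-fold below its wild type. Foxc2 has 1 probe set, so this bound has no second reading. The difference between the relatives was wide in the back pair, where Foxc1 gave -0.12 and -0.37 in its probe sets and Foxc2 gave -1.96 as a bound.

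Tbx18 marks the anterior part of the segment and is also a factor of limb mesenchyme and pericytes. Its signal was 2901 in WT limb, 4613 with MyoD null, 702 in WT back and 418 in back labelled Myf5-null. The limb arrays were far above the back arrays, and the mutants lay on the outer side of their wild types in both regions (0.67 in the limb pair and -0.75 in the back pair). The second probe set repeated this order, at 310, 458, 143 and under 100, with 0.57 in the limb pair and at least 1.43-fold lower in the back pair. Uncx, the homeodomain factor of the posterior part, from which the pedicles of the vertebrae and the proximal ribs arise, reached 100 only in back labelled Myf5-null, at 161. That is at least 1.61-fold above WT back, and it is too dim to be called.

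Tcf15 gave 399 in WT limb, 271 with MyoD null, 270 in WT back and 604 in back labelled Myf5-null. The array labelled Myf5-null was the highest and 2.23-fold above its wild type (1.16), while MyoD-null limb was below its wild type (-0.56). The arrays with higher Tcf15 were also those with a higher scaled median over all probe sets, which was 153 in WT limb and 166 in back labelled Myf5-null against 125 and 134 in MyoD-null limb and WT back. They also had the higher Gapdh ratios given above. With no rescaling, quantile normalization or loess, the Tcf15 ratio lay between 1.11 and 1.16 in the back pair. It lay between -0.56 and -0.46 in the limb pair. Beyond these settings, the part of the array differences in the Tcf15 result was not tested. En1, a homeodomain factor of the dermomyotome, the dermis of the back, the ventral limb ectoderm and spinal interneurons, was 139 in WT limb and 145 in back labelled Myf5-null and under 100 in the other arrays. These are the same arrays in which Tcf15 was high, and at this brightness En1 was not called in either pair.

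Zic1 is a zinc finger factor of the dorsal neural tube and dorsal somite that is needed for the vertebral arches. Its brighter probe set gave 204 in WT limb, 180 with MyoD null, 877 in WT back and 498 in back labelled Myf5-null. The second probe set gave under 100, 176, 699 and 317. Both showed WT back highest, back labelled Myf5-null next, and the limb arrays lowest. Within the back pair the log2 ratio was -0.82 in the brighter probe set and -1.14 in the other, so the first misses and the second passes a 2-fold difference. In the limb pair they differed in sign, at -0.18 and at least 1.76-fold higher. Foxd1, a forkhead factor known from the kidney stroma and the forebrain, was under 100 in both limb arrays, 879 in WT back and 752 in back labelled Myf5-null. The back arrays differed by only 1.17-fold (-0.22), so Foxd1 was not lower alongside Pax1, Foxc2 and Zic1 beyond the spread between probe sets.

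Limb was then compared with back, which asks how these factors differ between muscle pieces of the 2 body regions. The pieces were unequal in muscle signal. Of the 17 skeletal muscle genes, 16 were lower in WT limb than in WT back, with a median of -0.98, and 7 were called lower. Their summed signal was 98233 for WT limb and 65521 with MyoD null, against 193315 for WT back and 123153 for back labelled Myf5-null. How far this contributes to the member differences between regions was not tested. Of 8 members measured in WT limb or WT back, Tbx18 was called higher in the limb (4.13-fold, 2.05), where 5.30% of 14605 measured genes were called. Zic1 (4.31-fold, -2.11) and Foxd1 (at least 8.79-fold) were called lower in the limb, where 3.50% of genes were called. The same 3 genes were called when all 4 arrays were used, with the lower of the limb arrays set against the higher of the back arrays, or the reverse. The gap was 4.13-fold for Tbx18, 2.45-fold for Zic1 and at least 7.52-fold for Foxd1. In the second probe sets it was 2.17-fold for Tbx18 and 1.79-fold for Zic1, which was then not called. Over 15809 measured genes, 0.462% had such a gap with the limb higher and 0.493% with the limb lower, against 1 and 2 of 10 members. The arrays of a region differ in genotype and are not replicates, and the mutants share the tissue of their wild type. Between MyoD-null limb and back labelled Myf5-null, the ratios were 11.0-fold for Tbx18, 2.77-fold for Zic1 and at least 7.52-fold for Foxd1, in the same directions, and the second probe sets gave at least 4.58-fold for Tbx18 and 1.79-fold for Zic1. Pax1 lay in the other direction in that pair, at 0.42 against -0.75 between the WT arrays, and so did Tcf15, at -1.15 against 0.56. Foxc2 turned from -0.077 to 2.17, a bound, and En1 from 0.48 to -0.54, both bounds near the floor.

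**Figure D2:**
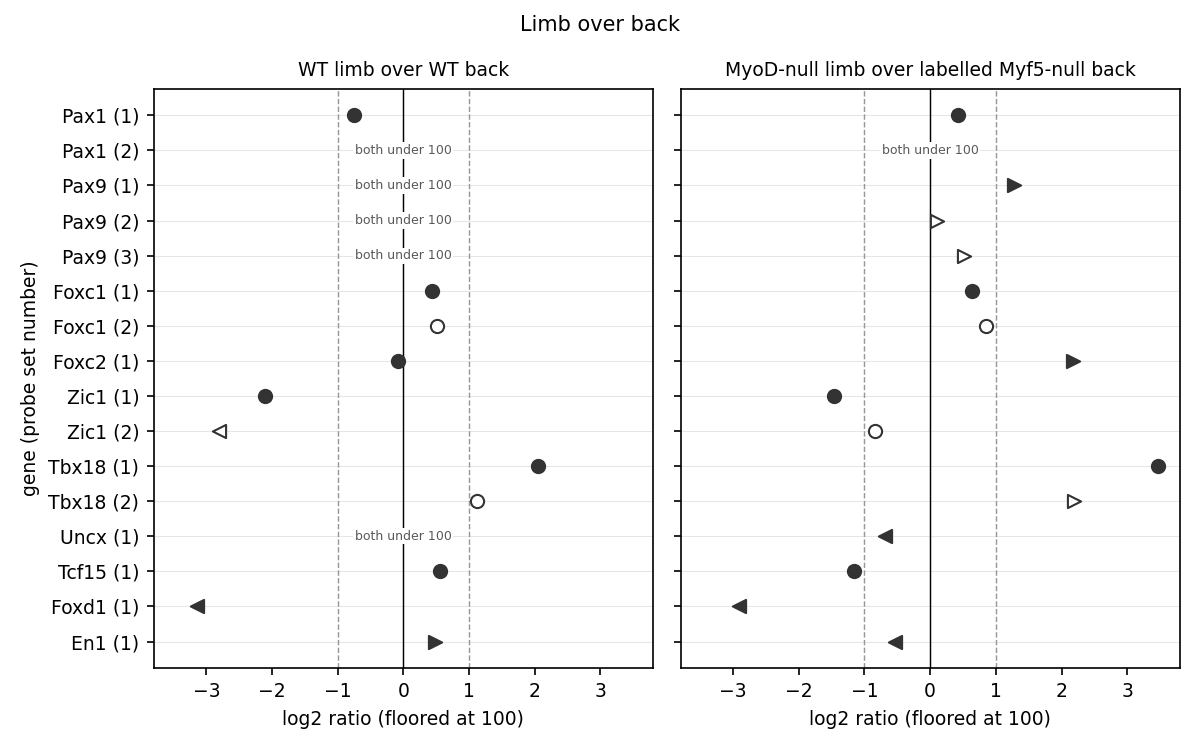
Log2 ratio of limb over back for each probe set, between the WT arrays (left) and between the mutant arrays (right); filled points are the brightest probe set of a gene, triangles are bounds, and dashed lines mark 2-fold. Tbx18 lies to the right and Foxd1 and Zic1 to the left in both panels, while Pax1, Foxc2, Tcf15 and En1 change side.

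The promoters of the 3 genes called between limb and back are shown, since these calls held in all 4 arrays. RefSeq start sites of GRCm38.p6 were found for 8 of the 10 members, all but Foxc2 and Tcf15. Given are the 250 bases before the start, 5′ to 3′ on the gene's strand, from chr13:98353995-98354244 on the plus strand for Foxd1, chr9:91365769-91366018 on the minus strand for Zic1 and chr9:87731261-87731510 on the minus strand for Tbx18. Capitals mark CANNTG (the E-box bound by basic helix-loop-helix factors, a family that includes MyoD, Myf5 and Tcf15), GGGCGG (the GC box) and CCAAT, on either strand, and no marked match overlaps another.
Foxd1: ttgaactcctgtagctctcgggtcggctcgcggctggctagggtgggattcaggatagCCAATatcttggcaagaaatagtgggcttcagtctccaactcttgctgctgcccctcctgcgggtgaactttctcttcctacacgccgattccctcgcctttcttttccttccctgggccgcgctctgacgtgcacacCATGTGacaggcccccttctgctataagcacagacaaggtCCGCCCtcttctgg
Zic1: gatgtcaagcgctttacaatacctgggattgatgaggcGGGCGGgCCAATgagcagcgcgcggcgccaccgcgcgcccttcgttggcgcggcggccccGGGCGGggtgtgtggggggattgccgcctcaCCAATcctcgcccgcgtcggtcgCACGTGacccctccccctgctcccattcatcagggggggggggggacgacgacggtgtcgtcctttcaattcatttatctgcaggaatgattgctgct
Tbx18: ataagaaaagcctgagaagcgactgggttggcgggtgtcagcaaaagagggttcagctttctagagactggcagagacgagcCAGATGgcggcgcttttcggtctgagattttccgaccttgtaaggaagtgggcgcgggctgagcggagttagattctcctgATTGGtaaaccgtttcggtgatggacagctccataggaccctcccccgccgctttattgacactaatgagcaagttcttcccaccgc
Each of the 3 holds 1 CANNTG and at least 1 CCAAT, and Foxd1 and Zic1 hold GGGCGG, which Tbx18 lacks in this window. Among 32851 windows of 250 bases before RefSeq starts, 66.2% hold CANNTG, 33.9% hold CCAAT and 32.7% hold GGGCGG, so single matches are common. Of the 8 members with a window, 5 hold CANNTG, 7 hold CCAAT and 4 hold GGGCGG. The letters CAGCTG, a form of the E-box favoured by MyoD and Myf5 and found in 13.0% of all windows, and TATAAA, found in 12.4%, are in 0 of the 8. The homeodomain core TAATTA, in 4.84% of windows, is in 1 of the 8, that of Uncx, where it occurs at 2 places. The windows of Foxc1 and Zic1 hold 29 and 27 CpG pairs, above 93.2% and 91.4% of all windows, whose median is 6, while Pax9 holds 7 and Foxd1 holds 12. These matches describe letters in a window and say nothing about binding.

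In MyoD-null limb against WT limb, the question was which of these factors differ in limb muscle of MyoD-/- embryos. Of 8 measured members, 1 was called higher, Pax9, where 2.30% of 14496 measured genes were called, and 0 were called lower, where 5.19% were. The median log2 ratio of the measured members was -0.052, beside -0.045 over all measured genes, with 4 members above and 4 below 0. The other members lay between -0.56 for Tcf15 and 0.67 for Tbx18. Foxd1 and Uncx were under 100 in both limb arrays. Pax9 passed the minimum of 200 in MyoD-null limb alone, and as the median over its 3 probe sets it was not called, at 0.51. Skeletal muscle genes were mostly lower in MyoD-null limb, with 13 of 17 below 0, 4 above and a median of -0.47. Their summed signal was 65521 against 98233 in WT limb. The part of this difference in the member results was not tested.

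In the array of back labelled Myf5-null against that of WT back, 3 of 9 measured members were called. Pax1 (2.66-fold) and Foxc2 (at least 3.90-fold) were lower, where 2.48% of 14684 measured genes were called, and Tcf15 was higher (2.23-fold), where 5.50% were. The median over the 9 members was -0.22, beside 0.045 over all measured genes, and 6 of 9 were below 0. Pax9 was under 100 in both arrays of the pair. Pax1 was read in 1 informative probe set, and Foxc2 and Tcf15 have 1 each, so none of the 3 calls has a second probe set to repeat it. Cartilage genes were lower in the same array, as 15 of the 16 listed ones were below 0 and 8 were called lower. Their summed signal was 7819 against 25708 in WT back, with 23344 for WT limb and 26857 with MyoD null, and the brightest probe sets of Col9a2, Col11a2 and Matn3 were under 100 in that array and in no other. A second probe set of Matn3 gave 173 there and 207 in WT back and was under 100 in both limb arrays. Muscle genes were lower too, with 16 of 17 below 0 and a summed signal of 123153 against 193315. Sox9, the transcription factor required for cartilage, was 304 against 1247 (-2.04), although its other probe sets gave 538 against 750 (-0.48) and, near the floor, 184 against under 100. The part of the cartilage and muscle differences in the Pax1 and Foxc2 results was not tested.

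**Figure D3:**
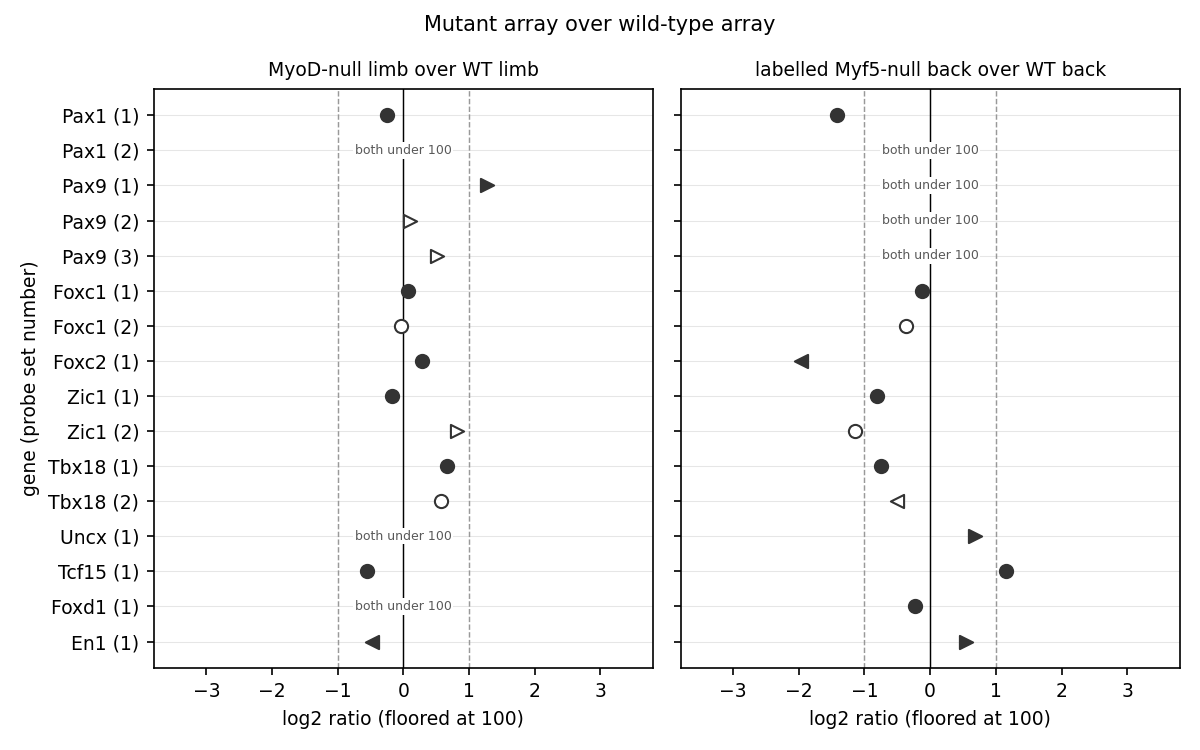
Log2 ratio of the mutant over the wild-type array for each probe set, in the limb (left) and in the back (right); filled points are the brightest probe set of a gene, triangles are bounds, and dashed lines mark 2-fold. In the limb only Pax9 lies beyond 2-fold, and in the back Pax1 and Foxc2 lie to the left and Tcf15 to the right, while a second probe set of Zic1 also passes the left line.

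The Hedgehog pathway, which induces Pax1 in the sclerotome, was read as a list of 14 genes, of which 13 have a named probe set. In the limb pair 7 were above and 6 below 0, and 0 were called, where 2.30% of all measured genes were called higher and 5.19% lower. In the back pair 1 was called higher and 2 lower, where 5.50% and 2.48% of all measured genes were, with a median of 0.13. Ptch1, the receptor of Hedgehog ligands and itself a target of the pathway, was 825 against 2024 in WT back (-1.30), and a dimmer probe set was under 100 in both arrays. Hhip, a target that binds the ligands outside the cell, was under 100 against 201, at least 2.01-fold lower, but other probe sets gave -0.037 and 0.097. Gli1, the transcription factor and target of the pathway, was 194 against 172 (0.17), and this turned to -0.11 under quantile normalization. The ligand genes Shh and Dhh were 448 against 295 (0.60) and 320 against 146 (1.13). In WT limb over WT back 11 of 13 lay above 0, with a median of 0.47 beside 0.042 over all genes. Gli1 was called higher there, where 5.30% of all measured genes were, at 493 against 172 (1.52). Gli3, the repressor of the pathway in limb patterning, was 4368 against 2276 (0.94), and its other probe set gave 2161 against 1674 (0.37).

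Of 12 partners of the sclerotome factors, 10 have a named probe set and 8 were measured. Nkx3-2, the target of Pax1 and Pax9 on the way to cartilage, and Nog, an inhibitor of bone morphogenetic proteins, were under 100 in all 4 arrays. The back pair had a median of -0.35 with 5 of 8 below 0, and Sox9 was the only one called, lower, where 2.48% of all measured genes were. The related homeodomain factors Meox1 and Meox2 differed between regions in opposite directions. Meox1, a factor of the somite, was 1052 and 849 in the limb arrays and 2122 and 1651 in the back arrays. Meox2, a factor of migrating limb muscle precursors, was 2613 and 2501 in the limb and 769 and 467 in the back. Zic1 and Foxd1 therefore shared the back side with Meox1, and Tbx18 the limb side with Meox2, by values alone.

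Dermomyotome and myotome genes, 14 of 15 with a named probe set, had a median of 0.46 in the limb pair with 9 of 14 above 0, and of 0.20 in the back pair with 7 of 13 above 0. Dmrt2, a factor of the dermomyotome that acts upstream of Myf5, was 383 in MyoD-null limb against 160 (1.26), and 472 against 601 in the back pair (-0.35). Pax7, which marks muscle progenitors and later satellite cells, was 261 against 681 in the back pair (-1.38) and 625 against 445 in the limb pair (0.49), while its dimmer probe set gave a bound of -0.59 in the back pair and the other sign, -0.20, in the limb pair. Pax3, its relative in the dermomyotome, was 199 against 113 in the back pair (0.82). Met, the receptor by which limb muscle precursors leave the dermomyotome, was 731 against 439 in the limb pair (0.73) and 369 against 729 in the back pair (-0.98). Lbx1, a factor of the same precursors, was 447 and 355 in the limb arrays and 123 and 194 in the back arrays, in the same order of regions as Tbx18, while a dimmer probe set reached 100 only in MyoD-null limb, at 213. In the limb pair Dmrt2 and Myf5 were called higher, where 2.30% of all measured genes were, and Myod1 lower, where 5.19% were. In the back pair Pax7 was called lower, where 2.48% were.

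Among genes of somite segmentation, most of them active at earlier stages, Notch1, Epha4 and Dll1 were bright, at 419 or more in every array in their brightest probe sets. The brightest of the rest was Lfng, at 255 in WT back. A second probe set of Notch1 gave 194 in MyoD-null limb against 619 in WT limb (-1.68). It gave 683 in back labelled Myf5-null against 382 in WT back (0.84). A dimmer probe set of Epha4 lay between 182 and 285. Of the 12 with a named probe set, between 2 and 5 were under 100 in an array, and Ripply2 was under 100 in all 4. In the limb pair Lfng, a modifier of Notch, was called higher at 223 against under 100 (at least 2.23-fold), where 2.30% of all measured genes were. By the brightest probe sets 0 were called in the back pair, where 5.50% were called higher and 2.48% lower.

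Relatives of the members were read to see whether whole families moved. Zic4, the neighbour of Zic1 on chromosome 9, was under 100 in all 4 arrays, and Zic5 was 104, 124, 181 and 119 in WT limb, MyoD-null limb, WT back and back labelled Myf5-null, highest in WT back like Zic1, although its dimmer probe sets reached 100 only in WT limb (125) or only in back labelled Myf5-null (139). Tbx15, the relative of Tbx18 in limb and dermis, was 1875 and 2509 in the limb arrays and 1152 and 1208 in the back arrays, higher in the limb by a gap of 1.55-fold against 4.13-fold for Tbx18. Foxd2 was 247 in MyoD-null limb against 552 in its wild type (-1.16), with 345 and 332 in the back arrays, so it did not share the back side with Foxd1. En2, the relative of En1, was 237, under 100, 113 and 193 in the 4 arrays, with the same arrays high as for En1. Of 13 measured relatives, Foxf1 and Pax5 were called higher in the limb pair, where 2.30% of all measured genes were. En2, Foxd2 and Tcf21 were called lower there, where 5.19% were. Tcf21 and Pax6 were called higher in the back pair, where 5.50% were. Foxf1 and Pax5 were under 100 in WT limb and En2 in MyoD-null limb, so these limb ratios are bounds. Other probe sets of Foxf1 and Pax5 lay on the other side in the limb pair, at -0.19 and -0.83, and those of Pax6 gave 0.092 and 1.12 in the back pair.

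Genes of dermis and dorsal mesenchyme, 12 in all, had a median of 0.58 in WT limb over WT back, with 10 above and 2 below 0. Of them 3 were called higher in the limb, where 5.30% of all measured genes were. Msx1, a homeobox factor of limb mesenchyme, was 2029 and 1705 in the limb and 322 and 387 in the back, and Msx2 and Prrx2 followed. Twist2, a factor of the dermis, was between 1842 and 3043 in all 4 arrays. Dkk2, Dpt and Prdm1 lay near 0 in WT limb over WT back, at 0.096, 0.028 and -0.077. Crabp1, a retinoic acid binding protein of dermis and nerve, was 2884 and 4107 in the back against 1936 and 1478 in the limb.

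**Figure D4:**
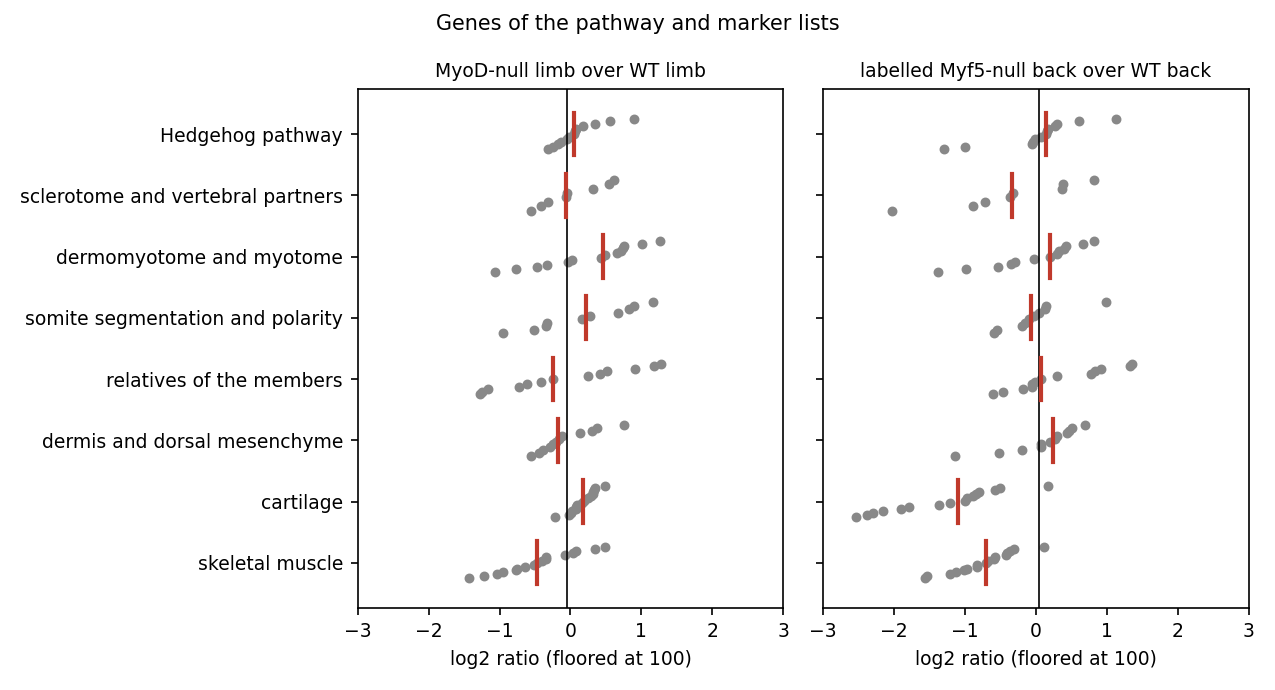
Log2 ratios of the measured genes of 8 lists, 1 point per gene, in the limb pair (left) and the back pair (right), with the list's median in red and the median of all measured genes as a black line. In the back pair all cartilage and skeletal muscle genes but Comp and Myl4 lie left of the line. The medians of these 2 lists are -1.10 and -0.70, while the Hedgehog list lies around the line. In the limb pair the median of the skeletal muscle genes is -0.47.

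Markers of other tissues in which Zic1, Foxd1, Tbx18 and En1 are known were read beside them. For the neural tube, Olig2, Nkx6-1 and Snap25 were under 100 in all 4 arrays, but the neurofilament genes Nefl and Nefm of nerve fibres were called higher in both back arrays, at 483 and 428 for Nefl and 898 and 720 for Nefm against at most 213 and 275 in the limb. Sox3, a factor of neural progenitors, went the other way, at 405 and 172 in the limb arrays against under 100 and 110 in the back arrays, and was called higher in WT limb over WT back. The summed signal of the 16 listed genes was 2501 and 2332 in the limb arrays and 3581 and 2956 in the back arrays. Of the kidney list, Wt1, a zinc finger factor of kidney and body cavity lining, was 428 and 657 in the back arrays and 108 and under 100 in the limb arrays, in the same order of regions as Foxd1. Six2, a factor of nephron progenitors, went the other way, at 1918 and 2590 in the limb and 703 and 700 in the back, and the summed signal of the 10 named genes was 6381 and 7002 in the limb and 5145 and 6539 in the back. Mural cell genes differed among themselves. Cspg4 and Notch3 were higher in both limb arrays, like Tbx18, by gaps of 1.31-fold and 1.28-fold, although the second probe set of each was not. Tagln was called lower in both limb arrays. Pdgfrb, the receptor of pericytes, was between 2622 and 3325 in its brighter probe set and gave 263 and 409 in the limb against 598 and 659 in the back in the other. Cnn1 and Myh11 of smooth muscle were under 100 in all 4. The summed signal of the 8 genes was 29782 and 29012 in the limb and 45377 and 43645 in the back. Most of it came from Acta2, at 23522 and 22811 in the limb and 38917 and 36645 in the back. That Acta2 probe set carries a suffix that marks shared probes, and the other reached 100 only in WT back, at 101. Endothelial genes, read because Foxc1 and Foxc2 are active there, had a median of 0.29 in the back pair with 0 of 11 called, and a summed signal of 7447 in back labelled Myf5-null against 6559 in WT back. In the limb they summed to 5725 and 5905. Of the 11, Tie1 and Lyve1 were called lower in both limb arrays, where 0.493% of all measured genes were. Without overlap between regions, 3 were lower and 1 higher in the limb, where 18.3% and 17.1% of all measured genes were. Lyve1 was 175 and 169 in the limb and 1028 and 1257 in the back. Its other probe set gave 131 and 123 in the limb and 374 and 538 in the back. Ectoderm genes summed to 15018 and 17301 in the limb and 8836 and 10915 in the back, with Krt5, a basal keratin, from 2454 to 6046. Liver genes, listed as markers of another organ, summed to 897 and 356 in the limb and 2896 and 785 in the back. Afp was 1651 in WT back and under 100 in back labelled Myf5-null. In that pair 4 of 6 measured liver genes were below 0 and 2 above, Apoa1 (0.37) and Apoa2 (0.99, a bound). The part of these tissues in the Zic1, Foxd1, Tbx18, Foxc2 and En1 results was not tested.

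The genes with the most similar pattern were sought for the 4 members at 100 or more in every array that spanned at least 2-fold, among 10564 other named genes, by the largest difference between log2 signals centred over the 4 arrays. For Pax1 these were Mus81 (0.066), Tbl3 (0.13) and Tnc (0.13), the last a matrix protein of tendon at 2346, 2317, 3891 and 1750 in the order of arrays used above. For Zic1 they were Abi3bp (0.25), Gata6 (0.26) and Ttn (0.28), the last the giant sarcomere protein titin. For Tbx18 they were Mecom (0.32), the tendon factor Mkx (0.44) and the Wnt inhibitor Wif1 (0.44), with Mecom at 5354, 6901, 1015 and 504. For Tcf15 they were Fam72a (0.040), Gpsm3 (0.059) and Tsks (0.079). With 4 arrays such likeness is a description only.

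The nearest protein-coding gene on either side of each member was read as well. Of these 20 neighbours 19 have a named probe set here, and 1 was called in any comparison, Srxn1 beside Tcf15, at 136 in WT limb against 280 in WT back (-1.04). Beside Foxc2, Mthfsd was 612 in WT back and 585 in back labelled Myf5-null (-0.064), and Foxl1 was under 100 in both. Beside Foxd1, Btf3 was between 4518 and 6756 in the 4 arrays, and Tmem174 was under 100 in all 4. Beside Tbx18, Cep162 and Nt5e were between 119 and 234 in every array. Beside Foxc1, its relative Foxf2 was 153 in WT limb and 113 in WT back and under 100 in both mutants.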

How the data were processed

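The authors deposited linear intensities, a single value for every probe set in an array, for which the submitters' processing notes name MAS5. Its version and scaling target are unknown here. Per the labels' protocols, RNA was extracted with Trizol and 6 µg was labelled. The deposited trimmed means lay between 1477 and 1479, so each array had been scaled already, and each was rescaled to 500. Signals under 100 were set to 100 before log2 ratios were taken, which understates differences of dim genes. A gene is represented by its brightest probe set (mean log2 signal over the arrays). Names come from the platform annotation (34958 probe sets with 1 symbol, 932 with several and not used, 9211 unnamed here). Comparisons were the 3 pairs of arrays and limb against back over all 4, with no test. Named genes were all members and, per list, those with the largest ratios at 200 or more, plus likeness and neighbours; the neighbours were added later, and further list genes were named for their role after their values were seen. The members and lists were chosen with earlier results of these data known. The steps were tested on simulated data. Python 3.11.15 with pandas 2.3.3, scipy 1.17.1 and statsmodels 0.14.6 was used. The number of arrays limits the precision.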

Additional observations from a re-analysis of the deposited data

Results flagged for a closer look

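By the brightest probe set, in 5 of the 10 members the mutant array lay above its wild type in one body region and below it in the other. The share of all genes that did so was not computed. Medians over all measured genes also differed in sign, at -0.045 in the limb pair and 0.045 in the back pair. With 1 array per group the difference between regions was not tested. Foxc2 had a log2 ratio of 0.29 in the limb pair and -1.96, as a bound, in the back pair. Tcf15 went the other way, at -0.56 in the limb pair and 1.16 in the back pair. Tbx18 was 0.67 in the limb pair and -0.75 in the back pair, so neither reached 2-fold although both were wider than the median spread between probe sets. En1 gave -0.48 and 0.54, both as bounds near the floor, and Foxc1 gave 0.076 and -0.12, both within the spread between probe sets. The second probe set of Foxc1 was below 0 in both pairs, at -0.037 and -0.37. Zic1 is not among the 5, but its second probe set gave 0.82, as a bound, in the limb pair and -1.14 in the back pair.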

How the results depend on the processing

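Tried were no rescaling, quantile normalization, loess within each pair (span 0.3), floors of 50 and 200, a pseudocount of 100 without a floor, the median over all probe sets and leaving out probe sets with shared probes. In WT limb over WT back Tbx18, Zic1 and Foxd1 were called under all of them. Over all 4 arrays 1 member rather than 2 was lower in the limb with the pseudocount, where Zic1 was not called. In the limb pair 0 members were higher with a floor of 200 and as a median over probe sets, where Pax9 was not called, and 1 was lower, En1, without rescaling. In the back pair the count of lower members fell from 2 to 1 with a floor of 200, where the floor alone limits Foxc2 to -0.96, and as a median over probe sets, where Pax1 was -0.71 because its second probe set is under 100 in both arrays. The count of higher members in the back pair was 2 without rescaling, with Uncx added, and 0 with the pseudocount, where Tcf15 was 0.93. Without rescaling, the limits of 100 and 200 lie lower relative to the signals. The cartilage gene Sox5 reversed in the back pair to 0.40 without probe sets of shared probes. Calls over all genes moved more: in the limb pair 334 were higher and 753 lower, with 114 and 179 at a floor of 200 and 1135 and 2089 without rescaling, and in the back pair 808 and 364, with 151 and 123 and 2123 and 1237. Between WT limb and WT back they were 774 and 511, with 245 and 259 and 2101 and 1372. Of the calls in the limb pair 30.7% were higher, but 45.4% after quantile normalization and 47.3% after loess, and in the back pair 68.9%, but 50.3% and 48.9%. Dim genes are limited by the floor, and Pax9, Uncx and En1 above all.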
